A study of Ovis aries with 15 samples.

Results

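Histone deacetylase genes were examined in the layered epithelium that lines the rumen, the largest forestomach chamber of sheep. The genes are those named HDAC1 to HDAC8, HDAC10 and HDAC11 in the expression tables, and all 10 were found among 19304 genes. The tissue came from male lambs of the Hu breed aged 6 months. RNA-seq gave 15 libraries in 3 groups of 5, labelled HG, HP and CON. The labels give no diet for each code. From the series title, which speaks of high-grain diets with and without pelleting, HG was taken to be the non-pelleted diet and HP the pelleted diet, both high in grain, and CON the control. Nothing in the labels says that each library is a separate animal, so p-values measure the spread between these libraries, which may be technical. Values are FPKM, a level per unit of transcript length and of library size, so different genes can be set beside each other.

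Histone deacetylases take acetyl groups off lysines of histones and other proteins, and acetylated histones mark open chromatin. Class I holds HDAC1, HDAC2, HDAC3 and HDAC8, which are mostly nuclear. Class IIa holds HDAC4, HDAC5 and HDAC7, which move between nucleus and cytoplasm and bind MEF2 transcription factors. Class IIb holds HDAC6, which deacetylates tubulin in the cytoplasm, and HDAC10, a polyamine deacetylase in studies of human and zebrafish protein. HDAC11 alone makes up class IV. Butyrate, which microbes form in the rumen, inhibits class I and class IIa enzymes, while HDAC6 and HDAC10 were little inhibited in studies of human proteins. These data hold transcript levels, and neither enzyme activity nor butyrate was measured in the files used here.

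The libraries differed in ways that touch the results. Median FPKM over all genes was 2.94 ± 0.21 in HG, 2.98 ± 0.201 in HP and 2.36 ± 0.602 in CON (SD, n = 5 each), with the lowest values, 1.98 and 1.52, in CON1 and CON3. CON1 and CON3 also had the most genes listed at 0, 1850 and 2269, against 1048 to 1589 in the other libraries. Their FPKM totals over all genes were the largest, 594092 and 644334, against 442682 to 545394 in the others. The markers of stratified epithelium summed to 8015 to 9659 FPKM in HG, 7087 to 10640.1 in HP and 7210.1 to 9357 in CON. All 16 of these markers were in the tables and none was listed at 0 in any library. Differences were tested with limma, a linear model fitted to log2(FPKM + 1) of each gene. At an unadjusted limma p under 0.05, 6 of 16 were higher and 1 lower in HG against CON, beside 21.8% and 5.5% of all genes. In HP against CON 8 were higher and 0 lower, beside 22.6% and 5.24%. The median log2 fold changes of these markers were 0.21 and 0.63. Those higher in both comparisons were PPL, PKP1, DSC2, EVPL, TP63 and DSP, and the 1 lower in HG was LGALS7. The keratin genes KRT5, KRT6A, KRT13 and KRT14 were neither higher nor lower at that p. A further keratin gene of the list, KRT4, was higher at that p in HP against CON but not in HG against CON. KRT4 was 2.35 ± 1.71 FPKM in HG, 20.3 ± 19.8 in HP and 2.78 ± 2.43 in CON (SD, n = 5 each). Its log2 fold change was 2.05 in HP against CON (limma adjusted p 0.0994) and 2.16 in HP against HG (limma adjusted p 0.999). The part of these markers in the deacetylase values was not tested. The 11 smooth muscle markers in the tables summed to 251.9 to 6348 FPKM in HG, 218.6 to 3783 in HP and 228.9 to 2096 in CON, with HG2, HG3, HP5 and CON1 above all others. None of the 11 was listed at 0. The 10 fibroblast markers summed to 1281 to 2145 FPKM in HG, 1115 to 1976 in HP and 812.4 to 1390.5 in CON, and 5 of 10 were higher in HG and 4 in HP against CON at that p. The 9 myeloid markers summed to 91.8 to 302.1 FPKM in HG, 95.6 to 240.8 in HP and 188.0 to 313.3 in CON. Their list medians were -0.45 in HG and -0.62 in HP against CON. At that p 1 of 9 was higher and 0 lower in HG, beside 5.5% of all genes lower. In HP 1 was higher and 3 lower, beside 5.24% of all genes lower. In such bulk tissue, fewer cells of a type and less RNA per cell cannot be told apart.

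HDAC1 was the most abundant member, and both class I and class II genes stood among the next 4 in level. Averaged over the 15 libraries, HDAC1 stood at 155.6 FPKM, above 96.8% of 13084 genes that entered the tests. HDAC5 followed with 42.2 FPKM and HDAC2 with 31.1. Next came HDAC10 with 20.5 FPKM, HDAC3 with 19.7, HDAC7 with 10.1 and HDAC6 with 8.24. The lowest levels belonged to HDAC4 with 4.35 FPKM, HDAC11 with 3.55 and HDAC8 with 3.4. HDAC1 exceeded HDAC5 in 15 of 15 libraries, HDAC5 exceeded HDAC2 in 13, HDAC2 exceeded HDAC10 in 15 and HDAC3 exceeded HDAC7 in 15. Other neighbours in this order did not separate: HDAC10 exceeded HDAC3 in 8 of 15 libraries, HDAC7 exceeded HDAC6 in 10, HDAC6 exceeded HDAC4 in 11, HDAC4 exceeded HDAC11 in 9 and HDAC11 exceeded HDAC8 in 8. HDAC1 and HDAC2 are close relatives that pair in the same complexes, and how the counting split reads between such genes is not given in the sources used here. HDAC9, the remaining class IIa gene, averaged 0.412 ± 0.276 FPKM in HG, 0.578 ± 0.283 in HP and 0.291 ± 0.188 in CON (SD, n = 5 each) and was too low to enter the tests.

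**Figure D1:**
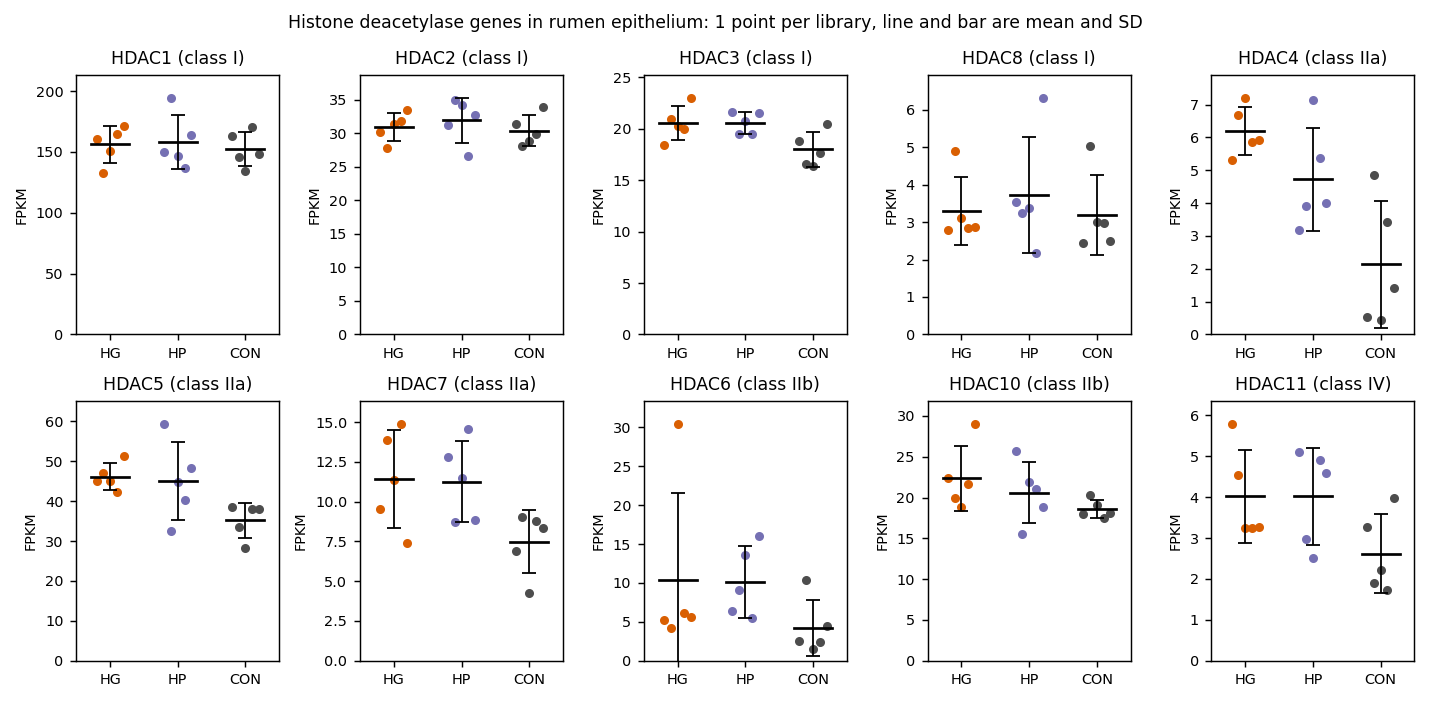
FPKM of the 10 histone deacetylase genes (vertical axes, each from 0) in HG, HP and CON libraries. Points are libraries, the line is the mean and the bar the SD (n = 5), and the HDAC6 bar of HG is cut at 0. In these unscaled values, HDAC4 and HDAC5 are the panels in which all HG points lie above all CON points, while HDAC1 and HDAC2 have group means close together.

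The genes also differed in how steady they were across libraries. HDAC2 varied least, with a coefficient of variation of 8.11% over the 15 libraries, followed by HDAC3 at 9.44% and HDAC1 at 10.6%. HDAC10 and HDAC5 varied by 16.4% and 18.7%. The coefficient was 30.1% for HDAC7, 33.4% for HDAC8, 34.5% for HDAC11, 51.2% for HDAC4 and 89.3% for HDAC6. The highest library exceeded the lowest 1.46 times for HDAC1, 16.7 times for HDAC4 and 20.3 times for HDAC6. In these unscaled values, pooled over the 3 groups, the steadiest members were class I genes and the 2 most variable ones class II genes. The class I gene HDAC8 was an exception among the low and variable ones. These coefficients were not computed after scaling, which changes the spreads. The SD of HDAC2 in CON was 2.29 FPKM unscaled and 6.16 after median-ratio scaling. For HDAC5 the SD in CON was 4.38 and 5.05. In unscaled FPKM, CON3 held the lowest value of HDAC3, HDAC4, HDAC5, HDAC6 and HDAC7.

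The first comparison set the non-pelleted high-grain diet against the control. The class IIa genes HDAC4, HDAC5 and HDAC7 had higher mean levels in HG than in CON, and HDAC1 and HDAC2 had nearly equal ones, but no member passed the test. The test was limma on log2(FPKM + 1) over 13084 genes, with Benjamini-Hochberg adjusted p under 0.05 as the threshold. It called 0 of 10 members, beside 0% of all genes. At an unadjusted limma p under 0.05, 4 of 10 members were higher, beside 21.8% of all genes, and 0 were lower, beside 5.5%. All 10 members had a positive log2 fold change, as did 69.2% of all genes. The median over members was 0.31 and that over all genes 0.17. Median-ratio scaling, which brings libraries to equal typical gene levels, left 1 of 10 members higher at that p, beside 12.3% of all genes higher and 12.8% lower, and 6 of 10 fold changes positive, beside 49%. Quantile normalization, which gives every library the same distribution, left 2 higher, beside 11.6%, and 8 positive, beside 47.8%. Without both CON1 and CON3, 1 of 10 members was higher at that p, beside 7.79% of all genes. Without the 4 libraries of most smooth muscle signal it was also 1 of 10, beside 7.22%.

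HDAC4, a corepressor that binds MEF2 factors in muscle and other tissues, had the largest fold change. It was 5.31, 6.68, 7.19, 5.87 and 5.92 FPKM in libraries HG1 to HG5, against 0.540, 4.86, 0.430, 3.41 and 1.43 in libraries CON1 to CON5. Every HG library lay above every CON library, with CON2 the nearest. The log2 fold change was 1.42 ± 0.329 (SE), or 1.25 relative to the median gene, with a limma adjusted p of 0.0779. HDAC4 shares its locus with 1 other gene of the RefSeq table, and the strand used in counting is not given, so reads of overlapping genes cannot be told apart. It passed the threshold without CON2 (log2 fold change 1.70, limma adjusted p 0.0134), where 2209 of all genes passed too. With array quality weights it also passed (1.26, limma adjusted p 0.0273), where 868 of all genes passed.

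Among CON libraries, HDAC4 and the library's median FPKM had the same order. From low to high both ran CON3, CON1, CON5, CON4 and CON2, and in HP both ran HP1, HP2, HP5, HP4 and HP3. In HG the orders differed. HDAC1 was in another order than the median in all 3 groups. Without both CON1 and CON3, the libraries of lowest median, the log2 fold change of HDAC4 was 0.85 in HG against CON, with a limma adjusted p of 0.344. After median-ratio scaling, HDAC4 in HG and CON still did not overlap, at 5.22 to 6.93 FPKM in HG and 0.633 to 4.69 in CON. For HDAC4 in HG against CON, this scaling gave a log2 fold change of 1.31 (limma adjusted p 0.0809). Quantile normalization gave 1.18 (limma adjusted p 0.0643). The part of the difference in library median in the HDAC4 values was not tested.

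**Figure D2:**
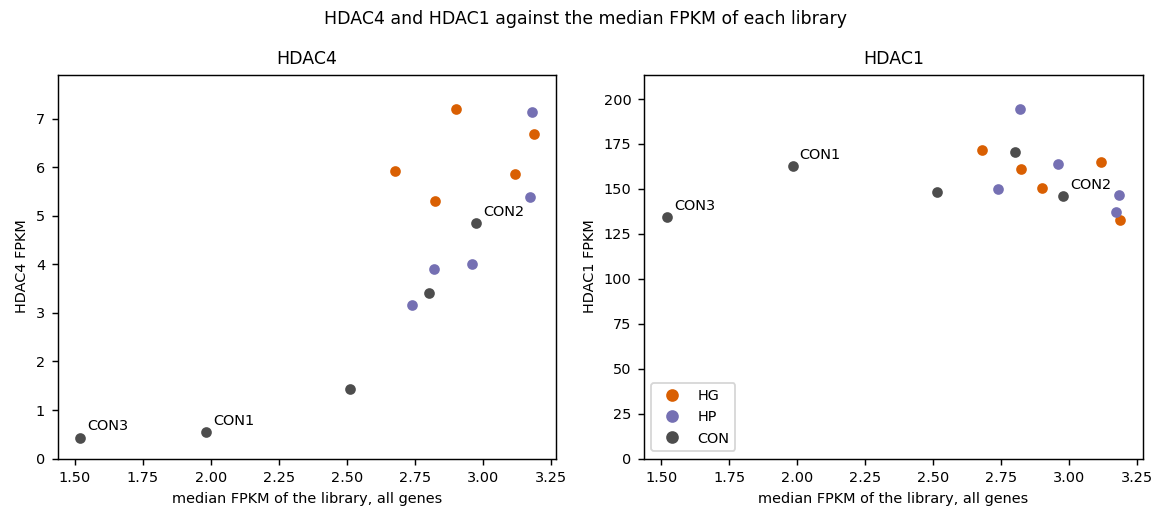
HDAC4 (left) and HDAC1 (right) in FPKM against the median FPKM over all genes of the same library, 1 point per library, coloured by group. CON3 and CON1, at medians of 1.52 and 1.98, have the lowest HDAC4 values, 0.430 and 0.540 FPKM, while their HDAC1 values lie within the range of the other libraries.

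HDAC5, the most abundant class II gene, is a signal-dependent corepressor that leaves the nucleus when phosphorylated. It was 45.2, 47.1, 45.0, 42.3 and 51.2 FPKM in libraries HG1 to HG5, against 38.4, 33.4, 28.4, 38 and 38.1 in libraries CON1 to CON5. The groups did not overlap in unscaled FPKM. After median-ratio scaling they did, at 38.9 to 50.4 FPKM in HG and 32.3 to 45.8 in CON. The log2 fold change was 0.39 ± 0.145 (SE; limma adjusted p 0.116), and 0.16 after median-ratio scaling. In unscaled FPKM, HDAC4 and HDAC5 were the 2 of 10 members whose HG libraries all lay above CON, beside 4.44% of all genes. In the same values 0 members lay wholly below, beside 1.13%.

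HDAC7, best known from endothelial cells and thymocytes of mice, was 9.55, 13.9, 11.4, 14.8 and 7.42 FPKM in libraries HG1 to HG5, against 6.89, 9.05, 4.25, 8.81 and 8.36 in libraries CON1 to CON5. In HG, 4 of 5 libraries lay above all of CON, and HG5 lay among them. Its log2 fold change was 0.55 ± 0.215 (SE; limma adjusted p 0.123), and it was 0.35 and 0.33 after median-ratio scaling and quantile normalization. The 10 endothelial markers, all above 0 in every library, summed to 109.4 to 157.9 FPKM in HG, 104.3 to 203.9 in HP and 85.0 to 123.4 in CON. Their part in the HDAC7 values was not tested. HDAC7 shares its locus with 3 other genes of the RefSeq table, so its reads are uncertain in the same way as those of HDAC4.

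HDAC6 was 5.27, 4.28, 30.4, 6.13 and 5.65 FPKM in libraries HG1 to HG5, against 2.51, 10.4, 1.5, 2.44 and 4.41 in libraries CON1 to CON5. A single library, HG3, stood far above the rest, and CON2 exceeded the other 4 HG libraries. The log2 fold change was 0.94 ± 0.486 (SE, limma adjusted p 0.218), and 0.48 without HG3. After median-ratio scaling HDAC6 was 9.91 ± 10.8 FPKM in HG, with HG3 at 29.3, and 4.46 ± 3.28 in CON (SD, n = 5 each). HDAC10 was 18.8 to 29.0 FPKM in HG and 17.4 to 20.4 in CON, and 3 of 5 HG libraries lay above all of CON. Its log2 fold change was 0.24 ± 0.14 (SE; limma adjusted p 0.275), and was 0.018 after median-ratio scaling, 0.091 after quantile normalization and 0.15 without HG5.

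HDAC11, which removes long fatty acyl groups from lysines in studies of human and mouse protein, was 5.78, 4.55, 3.25, 3.25 and 3.27 FPKM in libraries HG1 to HG5, against 3.27, 1.90, 2.21, 1.72 and 3.98 in libraries CON1 to CON5. HG1 and HG2 lay above all of CON and the other HG libraries lay within it. HDAC11 thus had a log2 fold change of 0.48 ± 0.216 (SE; limma adjusted p 0.163), and 0.31 and 0.23 after median-ratio scaling and quantile normalization.

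Class I genes had fold changes near 0 or near that of the median gene. HDAC1, a catalytic subunit of SIN3, NuRD and CoREST complexes, was 161, 133, 151, 165 and 172 FPKM in libraries HG1 to HG5, against 163, 146, 135, 170 and 148 in libraries CON1 to CON5. The groups overlapped over nearly their whole range. For HDAC1 the log2 fold change was 0.03, with a 95% interval from -0.22 to 0.29. HDAC2, its partner in these complexes, was 30.9 ± 2.12 FPKM in HG and 30.4 ± 2.29 in CON (SD, n = 5 each), with a log2 fold change of 0.03 and an interval from -0.20 to 0.25. Under median-ratio scaling the log2 fold change was -0.20 for both genes. HDAC3, the enzyme of the NCOR corepressor complex, was 20.5 ± 1.66 FPKM in HG and 18.0 ± 1.70 in CON (SD, n = 5 each, with a log2 fold change of 0.18, interval -0.04 to 0.40, and -0.040 under median-ratio scaling). HDAC8, which deacetylates the cohesin subunit SMC3, was 3.30 ± 0.903 FPKM in HG and 3.19 ± 1.06 in CON (SD, n = 5 each, with a log2 fold change of 0.05, interval -0.41 to 0.51). HDAC8 shares its locus with 3 other entries of the RefSeq table.

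The second comparison set the pelleted high-grain diet against the same control libraries. HDAC6 and HDAC4 had the largest fold changes in it, followed by HDAC7 and HDAC11, and no member passed the test. Limma called 0 of 10 members, beside 0.0153% of all genes. At an unadjusted limma p under 0.05, 5 of 10 members were higher, beside 22.6% of all genes, and 0 were lower, beside 5.24%. All 10 log2 fold changes were positive, as were 69% of those of all genes. Under median-ratio scaling 2 members were higher at that p, beside 11.9% of all genes higher and 13.7% lower, and 5 fold changes were positive, beside 48.4%. Under quantile normalization 2 were higher, beside 11.3%, and 8 positive, beside 48.9%. Without both CON1 and CON3, 0 of 10 members had an unadjusted limma p under 0.05, beside 6.36% of all genes higher and 2.9% lower. Without the smooth muscle libraries 3 were higher, beside 10% of all genes. The median log2 fold change was 0.26 over members and 0.18 over all genes. In this comparison 0 of 10 members had groups that did not overlap, beside 2.69% of all genes lying wholly higher and 0.825% wholly lower.

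HDAC4 was 3.17, 3.90, 7.13, 5.38 and 4.0 FPKM in libraries HP1 to HP5, against 0.540, 4.86, 0.430, 3.41 and 1.43 in libraries CON1 to CON5. HP3 and HP4 lay above all of CON, and the other HP libraries lay between CON5 and CON2. The log2 fold change was 1.05 ± 0.329 (SE; limma adjusted p 0.0991). It was 1.34 with a limma adjusted p of 0.0210 without CON2, where 2165 of all genes passed too, and 0.48 with a limma adjusted p of 0.580 without both CON1 and CON3.

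HDAC6 was 6.39, 9.11, 13.5, 5.48 and 16.1 FPKM in libraries HP1 to HP5, against 2.51, 10.4, 1.5, 2.44 and 4.41 in libraries CON1 to CON5. All HP libraries lay above 4 of the CON libraries, and CON2 lay within the HP range. Against CON the log2 fold change was 1.20 ± 0.486 (SE; limma adjusted p 0.136), and 1.54 with a limma adjusted p of 0.0390 without CON2. It was 0.80 with a limma adjusted p of 0.654 without both CON1 and CON3. After median-ratio scaling HDAC6 was 9.52 ± 4.25 FPKM in HP and 4.46 ± 3.28 in CON (SD, n = 5 each).

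HDAC5 was 59.2, 32.6, 44.9, 40.4 and 48.2 FPKM in HP1 to HP5, and 4 of these values lay above all CON values, with HP2 among them. Its log2 fold change was 0.33 ± 0.145 (SE; limma adjusted p 0.160), and 0.086 under median-ratio scaling. HDAC7 was 11.3 ± 2.53 FPKM in HP and 7.47 ± 1.98 in CON (SD, n = 5 each, with a log2 fold change of 0.55, limma adjusted p 0.128, and 0.33 under median-ratio scaling). HDAC11 was 4.02 ± 1.19 FPKM in HP and 2.62 ± 0.971 in CON (SD, n = 5 each, with a log2 fold change of 0.48, limma adjusted p 0.165, and 0.29 under median-ratio scaling). HDAC10 was 20.6 ± 3.74 FPKM in HP and 18.6 ± 1.14 in CON (SD, n = 5 each, with a log2 fold change of 0.13, and -0.11 under median-ratio scaling).

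Of the class I genes, HDAC1 was 150, 194, 146, 137 and 164 FPKM in HP1 to HP5, with HP2 above every other library of the study. Its log2 fold change against CON was 0.05, with a 95% interval from -0.21 to 0.31. HDAC2 was 31.9 ± 3.31 FPKM in HP and 30.4 ± 2.29 in CON, and HDAC3 was 20.6 ± 1.03 in HP and 18.0 ± 1.70 in CON (SD, n = 5 each). Their log2 fold changes were 0.07 and 0.19, with intervals from -0.16 to 0.29 and from -0.03 to 0.40. HDAC8 was 3.72 ± 1.54 FPKM in HP and 3.19 ± 1.06 in CON (SD, n = 5 each, with a log2 fold change of 0.15, interval -0.31 to 0.61). Under median-ratio scaling these 4 log2 fold changes lay between -0.20 and -0.037.

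**Figure D3:**
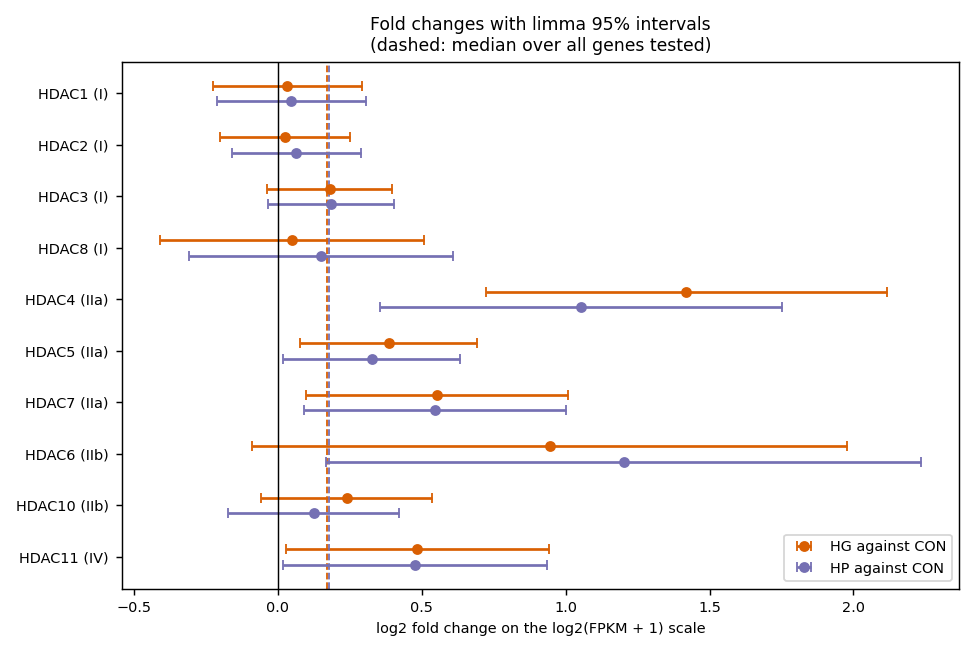
Log2 fold change on the log2(FPKM + 1) scale (horizontal axis) of each histone deacetylase gene in HG against CON and in HP against CON, which share their CON libraries. Points are limma estimates, bars their 95% intervals and dashed lines the medians over all genes tested, 0.17 and 0.18. HDAC4 lies farthest right in HG against CON, at 1.42, and HDAC6 in HP against CON, at 1.20.

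The third comparison set the pelleted against the non-pelleted high-grain diet. Limma called 0 of 10 members, beside 0% of all genes, and 0 members had an unadjusted p under 0.05, beside 2.1% of all genes. Log2 fold changes were positive for 5 members and negative for 5, beside 51.2% positive over all genes. HDAC4 had the largest in size, -0.37 with a 95% interval from -1.06 to 0.33, at 4.72 ± 1.57 FPKM in HP and 6.20 ± 0.741 in HG (SD, n = 5 each). The interval of HDAC6 ran from -0.78 to 1.29 and that of HDAC7 from -0.46 to 0.45. The narrowest intervals belonged to HDAC3, from -0.21 to 0.22, and HDAC2, from -0.18 to 0.27. HDAC5 stood at 45.1 ± 9.87 FPKM in HP and 46.2 ± 3.31 in HG (SD, n = 5 each), with an interval from -0.37 to 0.25.

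Summed per library, class II genes stood on average higher relative to class I genes in both high-grain groups than in CON. The class I sum was 210.9 ± 16.8 FPKM in HG, 214.4 ± 25.1 in HP and 204.0 ± 15.4 in CON (SD, n = 5 each). The class II sum was 96.5 ± 10.03 FPKM in HG, 91.8 ± 14.3 in HP and 67.7 ± 8.99 in CON (SD, n = 5 each). HDAC1 made up 74.0% of the class I sum in HG, 73.7% in HP and 74.6% in CON, and HDAC5 made up 48.2%, 48.8% and 52.4% of the class II sum in the same groups, so these 2 genes weigh most. The ratio of class I to class II was 2.42, 2.03, 1.82, 2.42 and 2.33 in HG1 to HG5, and 1.92, 3.61, 2.07, 2.13 and 2.34 in HP1 to HP5. It was 3.25, 2.5, 3.41, 3.15 and 2.91 in CON1 to CON5. All HG libraries lay below all CON libraries, and so did 4 of 5 HP libraries, while HP2 had the highest ratio of the study.

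On the log2 scale the ratio averaged 1.13 ± 0.182 in HG, 1.23 ± 0.36 in HP and 1.60 ± 0.174 in CON (SD, n = 5 each). The difference was -0.47 in HG against CON, -0.37 in HP against CON and 0.10 in HP against HG, given as a description with no test. The last of these rests on HP2, since it was -0.054 without that library. Dividing by any scaling factor of the library leaves this ratio as it is. Quantile normalization brought the first pair to -0.24 and -0.12. Without both CON1 and CON3 they were -0.38 and -0.28.

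**Figure D4:**
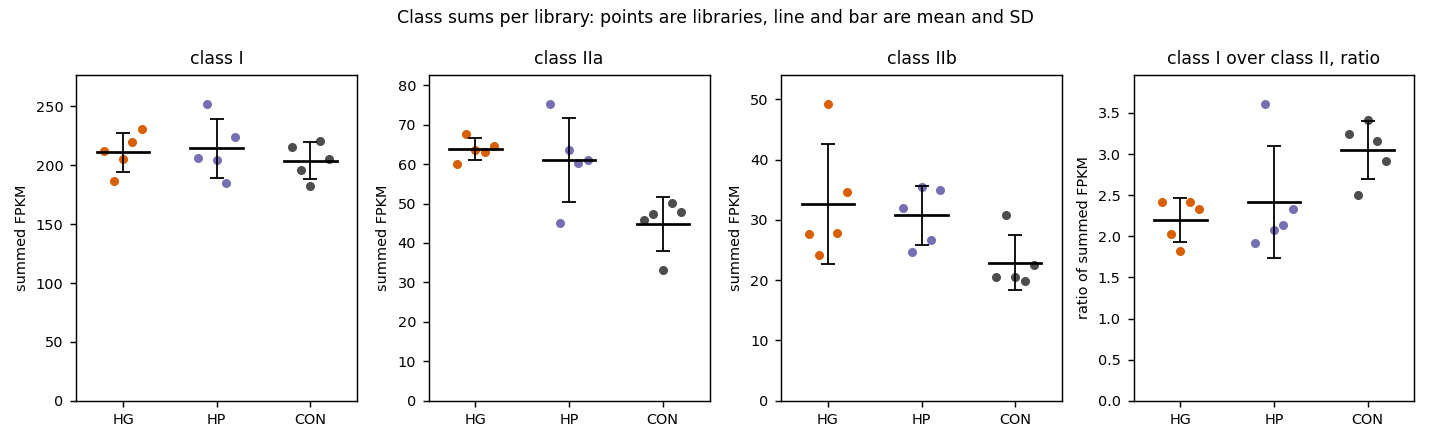
Summed FPKM of class I, class IIa and class IIb genes and the ratio of class I to class II (vertical axes from 0) in HG, HP and CON libraries. Points are libraries, lines are means and bars SD (n = 5). The class I sums overlap, and the ratio lies below all CON libraries in 5 HG and 4 HP libraries, with HP2 at 3.61.

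Genes whose levels ran most like each member over the 15 libraries, among 6940 named genes averaging at least 5 FPKM, were taken by Pearson's r after median-ratio scaling. The libraries share their group and their tissue makeup, so this is a description. Each r is also the highest found among these 6940 genes over 15 libraries, a choice that can give high values for unrelated genes. For HDAC4 it was TNK2, a tyrosine kinase gene (r 0.96, Spearman's rho 0.89). For HDAC1 it was ST13 (r 0.89, rho 0.83), for HDAC2 TMEM230 (r 0.95, rho 0.89) and for HDAC3 PRKAR1A, a regulatory subunit of protein kinase A (r 0.92, rho 0.93). HDAC5 went with CECR5 (r 0.88, rho 0.86), HDAC10 with C9H8orf33 (r 0.90, rho 0.75), HDAC7 with the receptor kinase gene AXL (r 0.84, rho 0.82) and HDAC6 with GALNT7 (r 0.81, rho 0.77). The lowest likeness was that of HDAC8 with BPGM (r 0.76, rho 0.66) and HDAC11 with RMND5B (r 0.70, rho 0.68).

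The class I enzymes HDAC1, HDAC2 and HDAC3 work inside corepressor complexes, and some scaffolds of these complexes had larger fold changes than their genes. This difference was not tested. Over all genes tested, limma called 0 members of each of these lists in each comparison. All genes that were higher at an unadjusted limma p under 0.05 made up 21.8% in HG and 22.6% in HP against CON, and the list counts are read beside these shares. The shares were 7.79% and 6.36% without both CON1 and CON3. Of 13 SIN3 complex genes, 4 were higher at an unadjusted limma p under 0.05 in HG against CON and 3 in HP against CON, with list medians of 0.10 and 0.09 beside 0.17 and 0.18 over all genes, so the counts lay near the shares of all genes. In each comparison 2 were higher without both CON1 and CON3. The scaffold gene SIN3A was 6.44 ± 0.506 FPKM in HG, 6.47 ± 0.638 in HP and 3.91 ± 1.14 in CON (SD, n = 5 each), and SIN3B was 8.05 ± 1.1, 6.63 ± 1.38 and 3.94 ± 1.97 in the same groups. Of 10 NuRD genes, 5 were higher at that p in each high-grain group, with medians of 0.38 and 0.33, and 2 and 1 were higher without both CON1 and CON3. The remodelling ATPase gene CHD4 was 28.6 ± 4.83 FPKM in HG, 26.4 ± 4.20 in HP and 19.4 ± 5.34 in CON (SD, n = 5 each).

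Of 8 CoREST and MiDAC genes, 5 and 4 were higher at an unadjusted limma p under 0.05 in HG and HP against CON, beside 21.8% and 22.6% of all genes, with medians of 0.48 and 0.38. It was 1 and 3 without both CON1 and CON3, beside 7.79% and 6.36% of all genes. MIDEAS, the scaffold of the mitotic deacetylase complex, was 7.5 ± 2.31 FPKM in HG, 8.34 ± 3.75 in HP and 3.16 ± 3.52 in CON (SD, n = 5 each). Of 5 genes of the NCOR complex, which holds HDAC3, 2 and 1 were higher at that p, with medians of 0.16 and 0.22, and 0 were in each comparison without both CON1 and CON3. The scaffold gene NCOR1 was 17.7 ± 2.13 FPKM in HG, 17.4 ± 3.54 in HP and 11.4 ± 5.33 in CON, and TBL1X, which encodes a subunit of the complex, was 51.3 ± 5.35, 45.6 ± 5.18 and 39.5 ± 7.86 in the same groups (SD, n = 5 each). Their limma adjusted p was 0.0952 and 0.105 in HG against CON. None of the complex genes had an unadjusted p under 0.05 in HP against HG.

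Class IIa enzymes are held in the cytoplasm by kinases and 14-3-3 proteins and bind MEF2 factors in the nucleus. Of 17 such partners, 9 were higher and 0 lower at an unadjusted limma p under 0.05 in each high-grain group, beside 21.8% of all genes higher and 5.5% lower in HG and 22.6% and 5.24% in HP. List medians were 0.52 in HG and 0.49 in HP against CON. Without both CON1 and CON3, 5 of 17 were higher in each comparison, beside 7.79% and 6.36% of all genes, and the medians were 0.23 and 0.24. MEF2D was 12.1 ± 2.86 FPKM in HG, 10.5 ± 1.31 in HP and 5.04 ± 3.05 in CON (SD, n = 5 each; limma adjusted p 0.0779 in HG and 0.0991 in HP against CON). The kinase gene SIK2, whose product phosphorylates class IIa enzymes, was 6.98 ± 1.14 FPKM in HG, 7.74 ± 2.27 in HP and 2.60 ± 2.37 in CON (SD, n = 5 each). PRKD2, a protein kinase D gene, was 22.7 ± 1.70, 22.3 ± 2.75 and 15.8 ± 3.01 in the same groups, and CAMKK2 was 8.27 ± 2.10, 6.80 ± 1.69 and 3.06 ± 1.89.

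Acetyltransferases add what deacetylases remove. Of 15 acetyltransferase genes, 9 were higher and 1 lower at an unadjusted limma p under 0.05 in HG against CON, and 8 were higher and 0 lower in HP against CON, with medians of 0.48 and 0.58. The shares of all genes were 21.8% higher and 5.5% lower in HG, and 22.6% and 5.24% in HP. Without both CON1 and CON3, 0 and 1 of the 15 were higher, beside 7.79% and 6.36% of all genes. EP300, which encodes p300, was 7.52 ± 1.16 FPKM in HG, 7.69 ± 2.16 in HP and 3.90 ± 2.87 in CON, and KAT2B (PCAF) was 20.6 ± 1.13, 21.9 ± 5.11 and 12.7 ± 5.48 (SD, n = 5 each). Of 12 genes whose products bind acetyl-lysine, 5 were higher and 1 lower in HG, and 6 were higher and 0 lower in HP, with medians of 0.39 and 0.49, and without both CON1 and CON3 2 were higher and 1 lower in each comparison. BRD1 was 9.67 ± 1.01 FPKM in HG, 10.8 ± 1.73 in HP and 4.95 ± 2.94 in CON, and BRPF1 was 7.67 ± 0.894, 7.43 ± 0.807 and 5.03 ± 1.06 (SD, n = 5 each).

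The sirtuins, deacetylases that use NAD and that butyrate does not inhibit, had 0 of 7 tested members at an unadjusted limma p under 0.05 in each comparison. SIRT2, a tubulin deacetylase like HDAC6, was the highest named one at 51.1 ± 4.85 FPKM in HG, 47.0 ± 5.74 in HP and 43.0 ± 6.27 in CON (SD, n = 5 each). Of 9 tested substrates and partners of HDAC6, 3 were higher in HG and 2 in HP at that p, beside 21.8% and 22.6% of all genes. Without both CON1 and CON3, 2 and 0 were higher, beside 7.79% and 6.36% of all genes. The autophagy receptor gene SQSTM1 was 103.8 ± 9.90 FPKM in HG, 85.4 ± 5.01 in HP and 65.8 ± 19.1 in CON, and the dynein heavy chain gene DYNC1H1 was 50.7 ± 5.60, 45.8 ± 7.89 and 34.0 ± 9.0 (SD, n = 5 each).

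Genes that HDAC inhibitors raise in cultured cells had medians close to that of all genes. Of 11 tested, 3 were higher and 0 lower in HG against CON at an unadjusted limma p under 0.05, and 1 was higher and 1 lower in HP against CON. Of all genes 21.8% were higher and 5.5% lower in HG, and 22.6% and 5.24% in HP. The counts without both CON1 and CON3 were 2 and 1 higher and 0 lower, beside 7.79% and 6.36% of all genes higher and 3.97% and 2.9% lower. Their medians were 0.21 and 0.24, beside 0.17 and 0.18 over all genes. The transcription factor gene KLF4 was 75.4 ± 7.5 FPKM in HG, 70.3 ± 6.41 in HP and 41.2 ± 16.7 in CON (SD, n = 5 each; limma adjusted p 0.0779 and 0.0991). CDKN2B, an inhibitor of cyclin-dependent kinases, was 10.7 ± 3.44 FPKM in HG, 9.33 ± 1.14 in HP and 7.22 ± 1.84 in CON, and SAT1, of polyamine breakdown, was 225.0 ± 41.3, 193.3 ± 32.9 and 242.4 ± 19.0 (SD, n = 5 each). HCAR2, a receptor for butyrate and ketone bodies, stood at 1.20 ± 0.722 FPKM in HG, 0.791 ± 0.35 in HP and 1.07 ± 0.352 in CON (SD, n = 5 each). It was 1 of 2 receptors of the list found in the tables, and the other 2 were not analysed here.

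**Figure D5:**
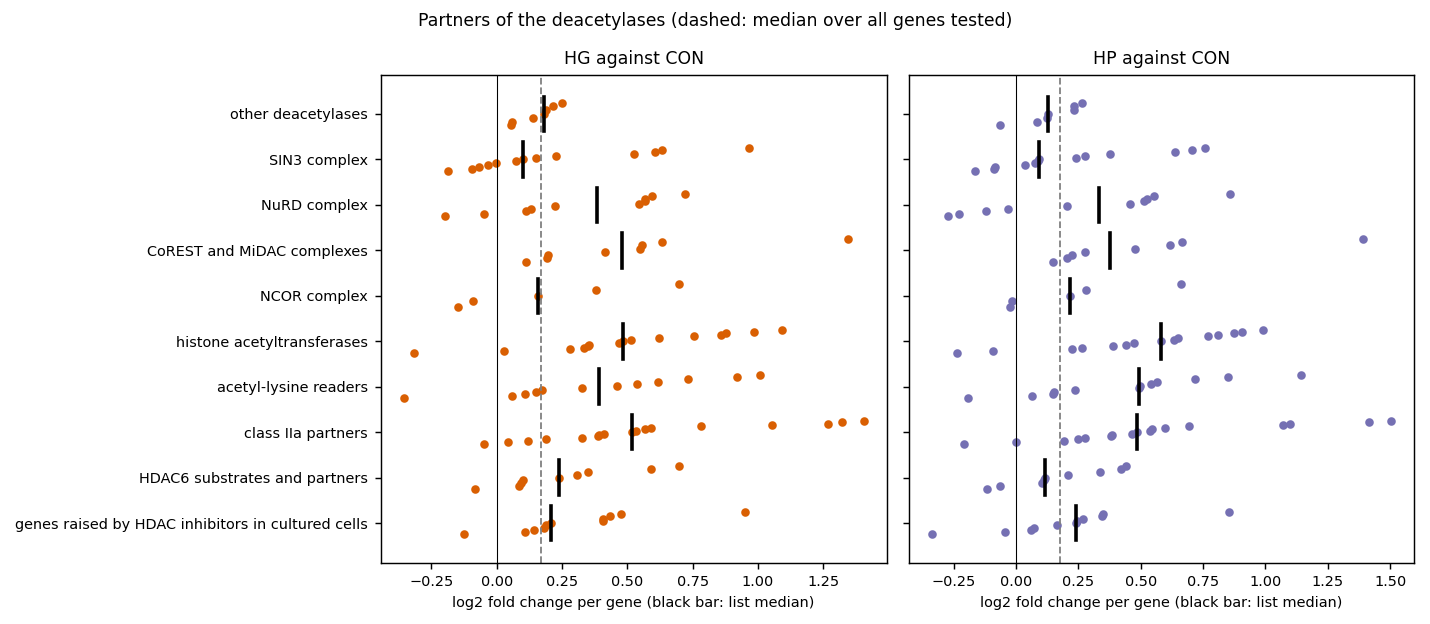
Log2 fold change on the log2(FPKM + 1) scale (horizontal axes) of the tested genes of each list of partners, in HG against CON (left) and HP against CON (right), which share the CON libraries. Points are genes, black bars list medians, and the dashed line is the median over all genes tested. Acetyltransferases and class IIa partners have medians of 0.48 and 0.52 on the left and 0.58 and 0.49 on the right, and SIN3 genes 0.10 and 0.09.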

How the data were processed

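RNA of the ruminal epithelium was extracted with Trizol, per the labels' protocols. For every library the authors deposited a table of FPKM over the same 19304 genes, per the file headers. The submitters' processing notes list HISAT2 and StringTie 1.3.4d without saying what each did. Build, annotation, strand and filters were not stated in the labels or headers. FPKM hides depth, so it is unknown, and no counting interval can be given. Among 1637 low genes, ratios between libraries showed no steps of whole reads (at most 1.65% in 1 bin), and no counts were recovered.

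The members and all gene lists were chosen with earlier results of these data known. Genes were matched by symbol, with 346 of 1933 entries named by a gene number taking a symbol from RefSeq (ARS-UI_Ramb_v3.0, used for names and neighbours only). Of 196 list entries, 11 were matched through a gene number or older symbol and 10 were not matched. Limma 3.58.1 in R 4.3.3 (trend, robust with statmod 1.5.0) was run on log2(FPKM + 1), which understates fold changes of low genes. The 13084 genes that reached 1 FPKM in 5 or more libraries entered 1 model of 3 group means, with Benjamini-Hochberg adjustment per contrast. The fit was tested on simulated data. Named were all members, up to 4 genes of each list with the smallest p, and the most alike gene of each member. Alternatives were other pseudocounts, filters, scalings, weights, a replicate block and libraries left out. Leaving out CON1 with CON3, or the 4 libraries with most smooth muscle signal, and some changes to the class ratio were chosen after seeing the data. A gene of a companion list is not reported here and was left out of its counts.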

Additional observations from a re-analysis of the deposited data

Results flagged for a closer look

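In each group of 5 libraries, a library was listed here where its gap to the nearest other, divided by the range of the group, exceeded 0.71. For independent values from a normal distribution, about 1 in 20 such groups would be listed. In all, 66 groups of members, class sums, shares and ratios were checked, of which 6 were listed. The sums, shares and ratios are built from the same members, so these groups are not independent. No explanation was tested.

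HDAC6 was 30.4 FPKM in HG3, against 4.28 to 6.13 in the other HG libraries. HG3 also had a summed smooth muscle level of 3809 FPKM, second to the 6348 of HG2, where HDAC6 was 4.28. HDAC8 was 4.91 FPKM in HG2, against 2.79 to 3.09 in the other HG libraries, and 5.03 in CON2, against 2.45 to 2.99 in the other CON libraries. The highest HDAC8 value, 6.31, was in HP5. HG2 and HP5 had smooth muscle sums of 6348 and 3783 FPKM and CON2 one of 233.9.

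The class IIa sum was 33.0 FPKM in CON3, against 45.9 to 50.2 in the other CON libraries, and CON3 had the lowest median FPKM of the study, 1.52. The class IIb sum was 30.8 FPKM in CON2, against 19.9 to 22.5 in the other CON libraries. The ratio of class I to class II was 3.61 in HP2, against 1.92 to 2.34 in the other HP libraries. On the log2 scale this ratio did not pass the rule. HP2 had the highest HDAC1 value, 194.2 FPKM, and the lowest HDAC10 value, 15.6.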

How the results depend on the processing

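No member passed the threshold in the 3 comparisons. For HG against CON this held except with array quality weights (1 member, HDAC4) and without CON2 (HDAC4). Of all genes, 868 passed with those weights and 2209 without CON2. The range was 0 to 1 over the 15 fits that leave out a library. In HP against CON the range was 0 to 2 (HDAC4 and HDAC6, without CON2, where 2165 of all genes passed). In HP against HG 0 members passed in every alternative. The replicate block called 0 members in each comparison and changed no call. Same-numbered libraries deviated together with r from -0.20 to 0.29 over 15 pairs, against -0.39 to 0.36 over 60 pairs of other numbers. Of 15 libraries, 4 correlated best with their own number. These values show no clear pairing by number, but a weak pairing would not be seen in this way. The difference in the class ratio in HG against CON was -0.24 under quantile normalization; the cause was not tested. Left out 1 library at a time, it ran from -0.54 to -0.40, from -0.52 to -0.29 in HP against CON and from -0.054 to 0.17 in HP against HG.

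Of 744 alternative values of member log2 fold changes, 690 kept direction and side, 50 turned sign and 4 passed the threshold. The signs that turned were mostly of fold changes near 0. Median-ratio scaling, which brought the median of all genes to -0.01 in both comparisons with CON, gave -0.20, -0.20, -0.040 and -0.13 for HDAC1, HDAC2, HDAC3 and HDAC8 in HG against CON, -0.20, -0.18, -0.051, -0.037 and -0.11 for HDAC1, HDAC2, HDAC3, HDAC8 and HDAC10 in HP against CON, and -0.0020 and -0.011 for HDAC1 and HDAC3 in HP against HG. Quantile normalization gave -0.061 and -0.21 for HDAC2 and HDAC8 in HG against CON, and -0.12 and -0.0065 for HDAC8 and HDAC10 in HP against CON. Array quality weights gave -0.028 for HDAC2 in HG against CON. HDAC8 in HG against CON was -0.046 without both CON1 and CON3. Without the 4 libraries of most smooth muscle signal, HDAC8 was -0.16 and -0.082 in HG and HP against CON, and HDAC1, HDAC2, HDAC3 and HDAC7 were -0.093, -0.012, -0.0041 and 0.18 in HP against HG. In that fit 0 members passed, and HDAC4 was 1.12 in HG and 0.89 in HP against CON.

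With 1 library left out, fold changes in HG against CON ran from -0.0092 to 0.091 for HDAC1, -0.0037 to 0.064 for HDAC2 and -0.071 to 0.19 for HDAC8. In HP against CON they ran from -0.028 to 0.10 for HDAC1 and -0.021 to 0.29 for HDAC8. In HP against HG they ran from -0.062 to 0.063 for HDAC1, -0.032 to 0.044 for HDAC3, -0.16 to 0.049 for HDAC5, -0.14 to 0.092 for HDAC7, -0.070 to 0.23 for HDAC8 and -0.086 to 0.11 for HDAC11. HDAC4 ran from 1.19 to 1.70 in HG and from 0.83 to 1.34 in HP against CON. The unknown depth limits what can be said of the genes under 5 FPKM, HDAC4, HDAC8 and HDAC11.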
